A study of Mus musculus with 8 samples.

Results

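The aquaporins are membrane channels that pass water, and some of them also glycerol or other small solutes. The 10 genes described here are Aqp1 to Aqp9 and Aqp11. They are 10 of the 20887 genes that the array's names could be matched to, and were read by 15 of the 55681 non-control probes on the array, taken as every probe whose systematic name is a RefSeq transcript of one of these genes. Of the genes, 5 had 1 probe and the other 5 had 2. The group was proposed with the Cy5 over Cy3 values of these same arrays in view, and the members were chosen by those ratios, so each difference between the groups is given below as a description, without a test.

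GFP-positive ureteric bud cells were sorted by flow cytometry from C57BL/6 kidneys on the day of birth (P0). The ureteric bud is the branching epithelial tube that forms the collecting ducts. The 4 control samples were wild type (WT). In the 4 knockout (KO) samples, called DOT1-null, the histone methyltransferase gene Dot1 (Dot1l) had been removed conditionally from cells with Hoxb7 expression, so cells outside that lineage keep the gene. The labels name neither the Cre line, nor the GFP allele, nor the animals or litters behind a sample, so the spread between samples may be partly technical, and any p-value measures only that spread. The Cy5 channel held the sample and the Cy3 channel always held WT 3 RNA, so the array of WT 3 compared that RNA with itself.

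In the adult kidney the collecting duct takes up water through principal cells. Vasopressin binds its receptor Avpr2, cyclic AMP rises, and vesicles with aquaporin-2 fuse with the apical membrane. Water then leaves through aquaporin-3 and aquaporin-4 in the basolateral membrane. Aqp1 is the channel of the proximal tubule, the thin descending limb, red cells and many capillaries, Aqp6 belongs to intercalated cells, and Aqp11 is an intracellular channel of proximal tubule cells. Aqp5 is best known from lung and secretory glands.

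Aqp5 was higher on every KO array than on any WT array at both of its probes, 2.34-fold at the brighter and 1.45-fold at the dimmer one. Aqp11 was lower at both of its probes, 1.29-fold and 1.31-fold, and its groups overlapped at one of them. Aqp2, Aqp1, Aqp3 and Aqp6 differed less between the groups than among the arrays of a group. Aqp4 gave opposite signs at its 2 probes, but both were above 0 on the 7 arrays with a value at both. Aqp7 and Aqp8 were close to background, and Aqp9 was not well above it on any array.

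Aqp2, Aqp5 and Aqp6 are direct neighbours in that order on chromosome 15 in the RefSeq table, between Faim2 and Racgap1. The 250 bases before the annotated start of each are shown because WT and KO arrays were apart only at the middle gene of the 3, and those of Aqp11 because it went the other way. They are taken from RefSeq (build GRCm38.p6), 5′ to 3′ on the strand of the gene. Capitals mark matches, on either strand, to the 7 short motifs searched. These were the TATA box, written TATAAA. The next was a core of the cyclic AMP response element, written TGACG. The AP-1 site was written TGANTCA. The GATA site was written AGATAA. The Sp1 site was written GGGCGG. The ETS site was written AGGAAG. The tonicity element core was written TGGAAA. No matches overlapped in these 4 windows.
Aqp2 promoter, chr15:99578806-99579055, plus strand: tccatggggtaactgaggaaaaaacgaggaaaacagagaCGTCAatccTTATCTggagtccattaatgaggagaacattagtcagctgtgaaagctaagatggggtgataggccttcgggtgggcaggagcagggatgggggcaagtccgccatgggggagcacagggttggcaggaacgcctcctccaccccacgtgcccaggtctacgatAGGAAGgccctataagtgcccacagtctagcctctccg
Aqp5 promoter, chr15:99590778-99591027, plus strand: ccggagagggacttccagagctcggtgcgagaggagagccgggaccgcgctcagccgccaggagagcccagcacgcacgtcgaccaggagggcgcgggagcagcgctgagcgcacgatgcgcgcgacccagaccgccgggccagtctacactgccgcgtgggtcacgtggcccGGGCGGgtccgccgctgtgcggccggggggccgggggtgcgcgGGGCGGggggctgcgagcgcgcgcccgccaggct
Aqp6 promoter, chr15:99600950-99601199, plus strand: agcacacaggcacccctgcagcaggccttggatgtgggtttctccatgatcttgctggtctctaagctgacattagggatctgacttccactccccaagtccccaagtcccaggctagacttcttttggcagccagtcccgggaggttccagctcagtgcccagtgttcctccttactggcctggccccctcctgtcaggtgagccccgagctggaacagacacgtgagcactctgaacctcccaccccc
Aqp11 promoter, chr7:97738248-97738497, minus strand: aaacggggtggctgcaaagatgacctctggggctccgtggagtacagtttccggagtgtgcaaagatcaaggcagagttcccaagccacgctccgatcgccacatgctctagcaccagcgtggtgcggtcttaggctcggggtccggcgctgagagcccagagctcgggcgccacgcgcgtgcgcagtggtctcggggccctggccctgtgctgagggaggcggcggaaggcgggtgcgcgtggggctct

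The Aqp5 window was 78.4% G and C with 38 CpG dinucleotides. Its 2 matches were both GGGCGG, which 32.7% of the 32851 promoter windows hold. Over all windows the median was 52.4% G and C with 6 CpG, and the upper quartile 61.2% with 16 CpG. The Aqp2 window, at 55.6% with 8 CpG, held the cyclic AMP, GATA and ETS motifs once each, which 17.8%, 9.99% and 29.5% of windows hold. The Aqp6 window, at 59.6% with 3 CpG, and the Aqp11 window, at 67.2% with 23 CpG, held none of the 7. A match is only a run of letters, and binding was not measured in these samples.

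The comparison over all probes took those with a Cy5 signal that the scanner software called well above background on 4 or more arrays, and with usable ratios from 3 or more arrays per group. This kept 31667 probes. Of the 15 aquaporin probes 12 passed, covering 9 of the 10 genes, and 10 of the 15 were well above background in Cy5 on all 8 arrays. No aquaporin spot was saturated, and 1 was left out because the scanner software had marked it. Values below are log2 ratios of Cy5 to Cy3 after background correction and loess normalisation, given in the order of replicates 1 to 4. Brightness differs between probes for reasons of their own sequence, so the levels of different probes were not set against each other. A ratio of 0 does not mark equal amounts either: on the array of WT 3 against itself, aquaporin probes read from -0.43 (Aqp3) to 0.47 (Aqp4).

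The arrays themselves were not alike. Cy5 was well above background for 52.4% to 56.2% of non-control spots on the WT arrays, for 59.1% to 68.9% on KO 1, KO 2 and KO 4, and for 95.2% on KO 3. The KO 3 array also had 8392 marked spots against 363 to 448 on the others. On the first principal component (55.6% of variance) KO 2 lay at -21.89, among the WT arrays at -28.65 to -20.70, and the other KO arrays at 27.14 to 54.76. All 8 arrays lay on 1 slide, WT in 1 row and KO in the other, so the row cannot be told apart from the genotype. The probe of Dot1l differed by 0.18 ± 0.11 on the log2 scale (limma adjusted p = 0.341), and the labels do not say whether it lies in the deleted part. Fewer cells of a type and less RNA per cell cannot be told apart in such bulk samples.

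Over all probes, limma called 2 of 31667 (0.00632%) at an adjusted p under 0.05, both lower in KO, and 0 higher. At an unadjusted p under 0.05 there were 3160 higher (9.98%) and 4379 lower (13.8%). With the scanner's own log ratio 2 were higher and 3 lower. WT and KO arrays did not overlap for 4.02% of tested probes in the direction higher in KO and for 7.73% in the direction lower in KO. Among the 12 aquaporin probes this held for 3 and 1. Of the 12, 4 had a mean difference above 0, as did 45.6% of all tested probes. Their median difference was -0.05, against -0.02 over all probes. Since the members were proposed from this contrast, nothing is read from these counts.

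Aqp5, the channel of secretory epithelia, was read by probes A_55_P1990121 and A_55_P2071236. At the first probe the WT arrays had log2 ratios of -0.83, -0.02, -0.15 and -0.61. The KO arrays had 0.78, 0.87, 0.80 and 0.85. The KO values lay within 0.09 of each other while the WT values spanned 0.82, and the groups were far apart. The WT mean was -0.40 ± 0.38 (SD, n = 4). The KO mean was 0.83 ± 0.04 (SD, n = 4), a difference of 1.23 ± 0.17 (SE of the fit). At least a 2-fold rise was seen for 1.10% of all tested probes.

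The second Aqp5 probe gave the same order of groups at a smaller size. Its WT arrays had -0.24, -0.05, 0.19 and 0.01. Its KO arrays had 0.50, 0.69, 0.40 and 0.44, all above the WT arrays. The means were -0.02 ± 0.18 (SD, n = 4) and 0.51 ± 0.13 (SD, n = 4), a difference of 0.53 ± 0.11 (SE). KO 2, which lay among the WT arrays over all probes, had the highest Aqp5 value of the 8 arrays at both probes.

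The Aqp5 difference was visible in the spots before any correction. At the first probe the Cy5 intensity was 229, 370, 380 and 264 on the WT arrays and 964, 1069, 1829 and 892 on the KO arrays. The Cy3 intensity, from 1 RNA on all arrays, stayed between 96.0 and 109 on all arrays but KO 3, where it was 148. At the second probe Cy5 was 121 to 157 on WT arrays and 338, 413, 1672 and 337 on KO arrays. Its Cy3 intensity was 36.5 to 47.5 on all arrays but KO 3, where it was 182.5. WT Cy5 signals at this probe were only 1.77 to 2.38 times the local background. The KO arrays were also brighter as a whole, with a median Cy5 intensity of 122, 137, 636 and 126 against 93.5 to 108 on the WT arrays, and the part of this in the Aqp5 difference was not tested. Without KO 3 the differences were 1.23 and 0.57, and without KO 2 they were 1.21 and 0.47.

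The neighbours of Aqp5 on both sides had smaller differences. Aqp2, on one side, had a difference of -0.01 ± 0.30 (SE) and Aqp6, on the other, of -0.06 ± 0.26 (SE). Faim2, next to Aqp2, had 0.23 ± 0.12 (SE), and Racgap1, next to Aqp6, had -0.27 ± 0.16 (SE). The WT and KO arrays overlapped for all 4.

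Aqp2, the vasopressin-regulated apical channel of principal cells, was measured well in every sample, with Cy5 at 57.2 to 152 times the local background. The WT arrays had log2 ratios of -0.49, 1.10, 0.44 and 0.71. The KO arrays had 0.43, 0.39, 0.11 and 0.78. WT 1 was the lowest and WT 2 the highest of all 8, a 3.00-fold range within the controls that held every KO array. The WT mean was 0.44 ± 0.67 (SD, n = 4). The KO mean was 0.43 ± 0.27 (SD, n = 4), and the difference of -0.01 ± 0.30 (SE) takes its sign from single arrays. It was -0.32 without WT 1 and 0.21 without WT 2. The median log2 ratio of the principal cell markers was also lowest on WT 1 (-0.49) and highest on WT 2 (0.18) among the WT arrays, with KO arrays from -0.48 to 0.05, and its part in the Aqp2 values was not tested.

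Aqp3, the basolateral water and glycerol channel of principal cells, was bright on all arrays, with Cy5 at 138 to 198 times the local background. Its WT ratios were -0.54, -0.23, -0.43 and -0.39 and its KO ratios were -0.73, -0.95, -0.21 and -0.53. KO 1 and KO 2 lay below all WT arrays and KO 3 above them. The difference was -0.21 ± 0.15 (SE). The value was -0.09 without KO 2 and -0.34 without KO 3, and -0.80 with median centring in place of loess. With that centring the median over all probes was -0.28.

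Aqp4, the second basolateral channel, was read by 2 probes, whose differences had opposite signs. At A_55_P2031939 the WT ratios were -0.65, -0.12, -0.22 and -0.05, and the KO ratios were 0.20, 0.08 and 0.68 on KO 1, KO 2 and KO 4. The KO 3 spot had been marked by the scanner software and was left out. The 3 KO values lay above all WT values, a difference of 0.58 ± 0.19 (SE), or 0.45 with the marked spot kept. At A_55_P2000369 the WT ratios were 0.20, 0.97, 0.47 and 0.65 and the KO ratios 0.64, 0.65, -0.48 and 0.82. Here KO 3 lay far below the rest and the difference was -0.16 ± 0.28 (SE), or 0.13 without KO 3. On the 7 arrays with a value at both probes, both differences were thus above 0, and the probes correlated at 0.68. Whether the probes read different Aqp4 transcripts was not tested.

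Aqp1, the channel of the proximal tubule, thin limb, red cells and endothelium, was well above background on all arrays. Its WT ratios were -0.18, -0.42, -0.18 and 0.39 and its KO ratios -0.39, 0.13, 0.01 and 0.37. The 4 KO values lay inside the WT range, and the difference was 0.13 ± 0.20 (SE). With median centring in place of loess it was negative, as it was with Cy5 alone. The medians over all probes were -0.28 and -0.18 in these settings, against -0.02 in the main setting. Markers of the cells known for Aqp1 also varied widely: the median log2 ratio of the proximal tubule and thin limb markers ran from -0.32 to 1.10 over the WT arrays, that of erythroid genes from -1.54 to 0.23 and that of endothelial genes from -0.32 to 1.01. Over the KO arrays these medians ran from -1.32 to 0.82, from -0.30 to 0.07 and from 0.15 to 0.45. Their part in the Aqp1 values was not tested.

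Aqp11, the intracellular channel, was lower in KO at both probes. At A_55_P2177953 the WT ratios were 0.55, 0.26, 0.44 and 0.18 and the KO ratios -0.21, 0.16, 0.04 and -0.13. Every KO array lay below every WT array, though KO 2 and WT 4 nearly met. The difference was -0.39 ± 0.12 (SE). At A_55_P1995507 the WT ratios were -0.03, -0.33, -0.26 and -0.55 and the KO ratios -1.12, -0.45, -0.50 and -0.58. WT 4 fell among the KO arrays there and KO 1 was well below the rest, with a difference of -0.37 ± 0.16 (SE). Without KO 1 that difference was -0.21, and at the other probe it was -0.33. The median log2 ratio of the proximal tubule and thin limb markers was highest on WT 1 (1.10) and lowest on KO 1 (-1.32), the arrays with the highest and the lowest value at both Aqp11 probes. This median was higher on KO 3 (0.82) and KO 4 (0.16) than on WT 2, WT 3 and WT 4 (0.01, -0.04 and -0.32). Aqp11 at A_55_P2177953 was lower on KO 3 and KO 4 than on those WT arrays. At A_55_P1995507 this held for KO 4 (-0.58), while KO 3 (-0.50) lay above WT 4 (-0.55). The part of the marker median in the Aqp11 values was not tested.

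Aqp6, the channel of intercalated cells, was read clearly by 1 of its 2 probes. At A_55_P2182955 the WT ratios were -1.44, -0.87, -0.36 and -0.95 and the KO ratios -1.01, -1.37, -1.14 and -0.33. The groups overlapped along their whole length, with a difference of -0.06 ± 0.26 (SE). The other probe, A_55_P2182950, was well above background in Cy5 on 0 WT and 2 KO arrays, and its difference is not given. On the array of WT 3 against itself the first probe read -0.36.

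The remaining channels were near the limit of detection. Aqp7, which passes glycerol and is known from fat and the proximal tubule, was well above background in Cy5 on 2 WT and 4 KO arrays. Its difference was -0.15 ± 0.11 (SE), with WT ratios from -0.19 to 0.10 and KO ratios from -0.31 to -0.01. It was -0.53 with a normexp offset of 0, -0.30 without background subtraction and -0.80 with the scanner log ratio, so the size depends on how background was treated. Aqp8 was above background on 3 WT and 4 KO arrays at A_55_P2318584, with a difference of -0.04 ± 0.10 (SE) and overlapping groups, or -0.26 with an offset of 0. Its other probe was above background on 1 KO array. Aqp9, a glycerol and urea channel of liver and leukocytes, was above background on 0 of 8 arrays. Of the other aquaporin genes, Mip and Aqp12 were each above background on KO 3 alone, the array with 95.2% of spots above background.

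**Figure D1:**
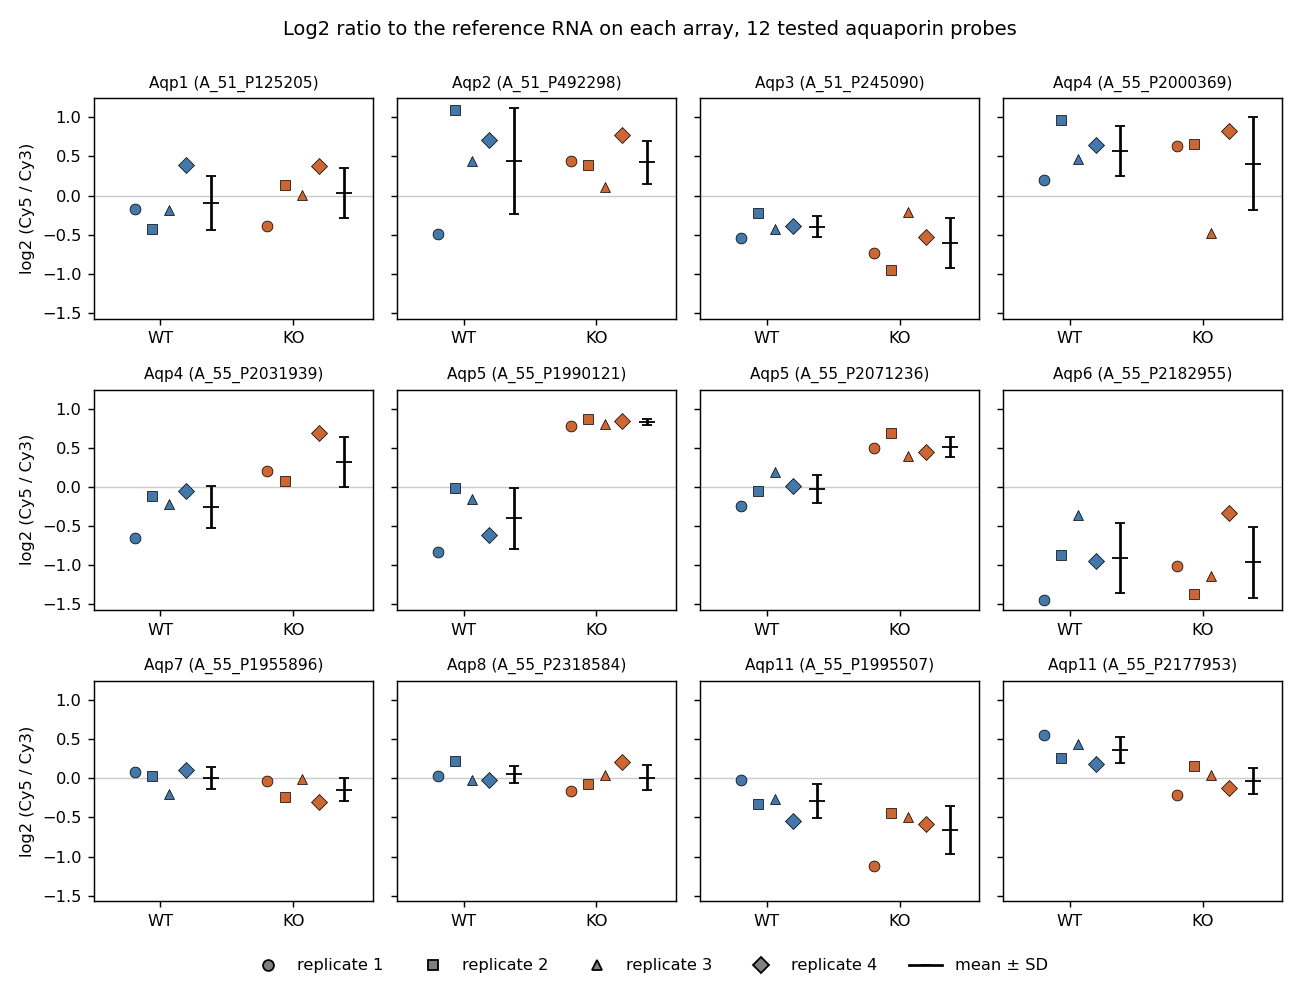
Log2 ratio of Cy5 to Cy3 on each array for the 12 tested aquaporin probes, with WT on the left and KO on the right of each panel. Symbols stand for replicate numbers and the bars show the mean ± SD. Both Aqp5 probes have all KO arrays above all WT arrays, and Aqp2 spans -0.49 to 1.10 within WT.

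**Figure D2:**
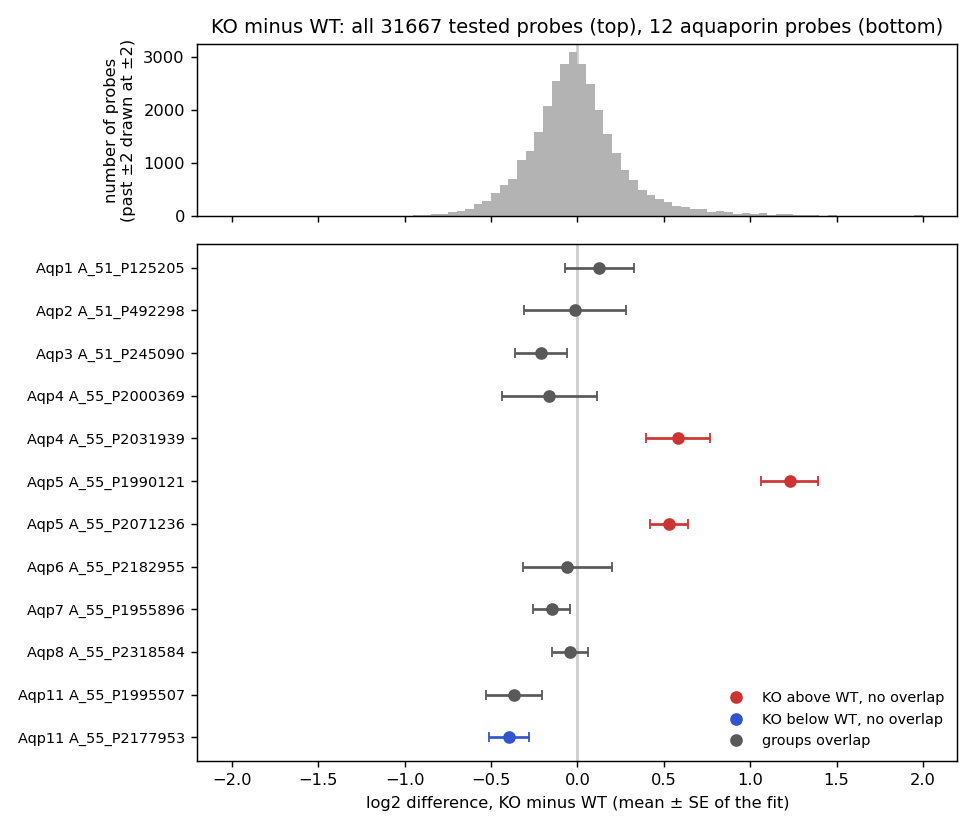
Difference KO minus WT on the log2 scale. The upper panel is a histogram of all 31667 tested probes and the lower panel gives the 12 aquaporin probes with the standard error of the fit. Colour marks the 3 probes with KO above WT without overlap and the 1 below.

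Left-out arrays did not turn the direction of Aqp5 or Aqp11. Over the 22 alternative settings both Aqp5 probes stayed above 0, from 1.08 to 1.75 and from 0.46 to 1.13. Both Aqp11 probes stayed below 0, from -0.69 to -0.21 and from -0.88 to -0.33. Aqp3 and A_55_P2031939 of Aqp4 also kept their sign in all 22. The sign of Aqp2 turned in 7, that of Aqp6 in 6, and those of Aqp1 and A_55_P2000369 of Aqp4 in 2 each. Aqp7 and Aqp8 had values in 21 settings, and the sign of Aqp8 turned in 2 and that of Aqp7 in 0. In 2 of these settings the median over all probes itself moved, to -0.28 with median centring and to -0.18 with Cy5 alone.

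**Figure D3:**
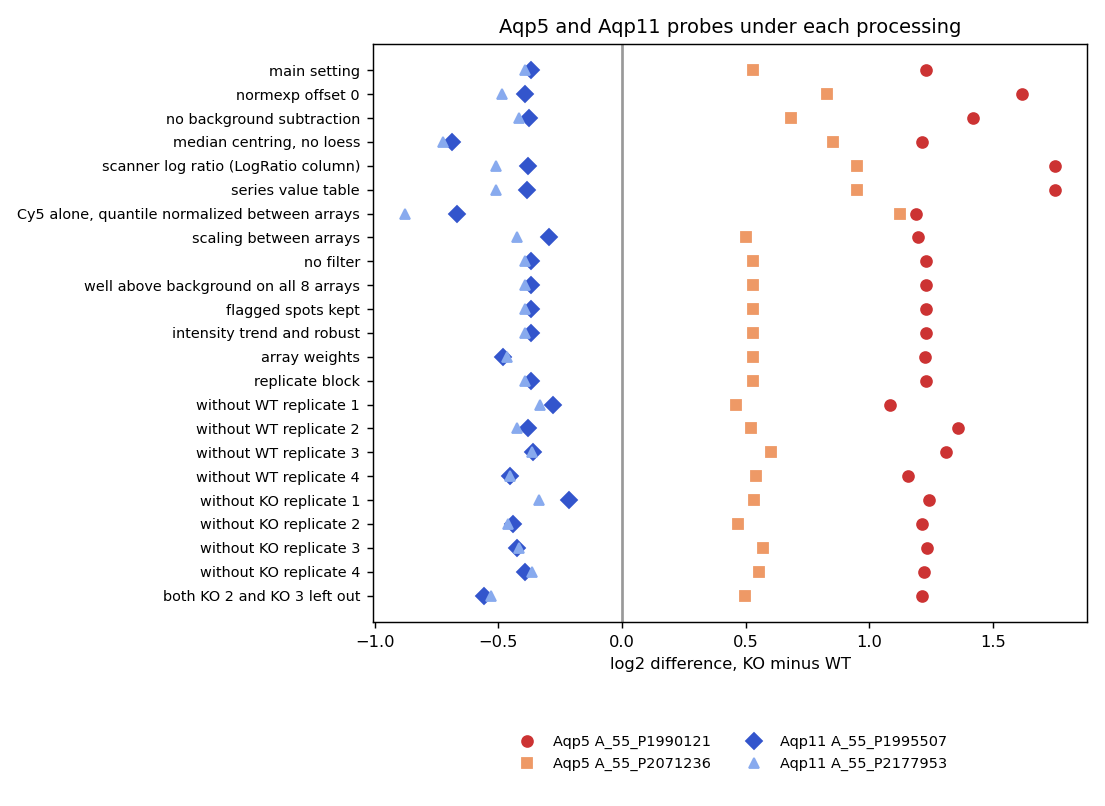
Log2 difference KO minus WT of the Aqp5 and Aqp11 probes under the main setting and 22 alternatives, 1 line each. The first Aqp5 probe lies between 1.08 and 1.75 and every Aqp11 value lies below 0.

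Genes whose array profile lay closest to an aquaporin were found by Euclidean distance over the 8 log2 ratios, each probe centred on its mean, among 18235 named probes with full data. All arrays share the Cy3 RNA and the shift between groups, so these are descriptions only. For Aqp5 they were Cp, Clstn2 and Gabrp (distances 0.69, 0.89 and 0.93). For Aqp2 they were Gadd45b, Ccn1 and Maff (0.56, 0.57 and 0.64), and for Aqp3 Ccl3, Bcl9 and Cmip (0.25, 0.30 and 0.32). Aqp11 had Cyba, Gpr137b-ps and Tpmt (0.20, 0.26 and 0.26). Aqp6 had Sfrp1, the intercalated cell proton pump gene Atp6v1b1, and Slc26a10 (0.55, 0.55 and 0.57). Aqp1 had Trim47 and Acot10, Aqp4 had Snhg1, Ube2s and Eif4a2, and the dim Aqp7 and Aqp8 had Dnaaf4, Palb2 and Cep89, and Csf2rb and Ptger4.

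The genes that act on aquaporin-2 were followed as lists. Of 29 genes of vasopressin signalling and Aqp2 transcription 28 were tested, and limma called 0 higher and 0 lower (2 and 5 at an unadjusted p under 0.05, beside 9.98% and 13.8% of all tested probes). The median difference was -0.09, with 9 above and 19 below 0, beside -0.02 over all probes. The receptor gene Avpr2 had -0.38 ± 0.23 (SE; limma adjusted p = 0.336), with -0.26 at its other probe. Gnas, the stimulatory G protein, had -0.04 ± 0.13, the adenylyl cyclase gene Adcy6 0.56 ± 0.15 (limma adjusted p = 0.108) and the kinase gene Prkaca -0.31 ± 0.11. In 3 genes of the list, Prkaca and Pax8 among them, the KO arrays lay below all WT arrays, against 7.73% of all tested probes.

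Traffic genes carry aquaporin-2 vesicles to and from the membrane. Of 27 tested genes limma called 0 (7 higher and 3 lower at an unadjusted p under 0.05, beside 9.98% and 13.8% of all tested probes), and the median was 0.08, with 14 above and 13 below 0. The fusion proteins Stx4a and Snap23 had 0.39 ± 0.11 and 1.05 ± 0.40 (SE), but Snap23 had -0.40 at its other probe and Stx4a 0.15. Vamp2, their partner on the vesicle, had -0.09 ± 0.09, and Rab11a, a GTPase of recycling vesicles, 0.08 ± 0.12. The groups did not overlap for 3 genes higher in KO and 1 lower, beside 4.02% and 7.73% of all tested probes.

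Genes of osmolyte and urea transport serve cells in the hypertonic medulla. Of 10 tested genes 8 had a positive difference, as did 45.6% of all tested probes, with a median of 0.44. Of the 10, limma called 0 (6 higher and 0 lower at an unadjusted p under 0.05, beside 9.98% and 13.8% of all tested probes). The inositol carrier gene Slc5a3 had 0.75 ± 0.23 (SE; limma adjusted p = 0.120), and 0.95 at its other probe. The taurine carrier gene Slc6a6 had 0.28 ± 0.12, the aldose reductase gene Akr1b3 0.26 ± 0.22 and the urea transporter gene Slc14a2 0.61 ± 0.19, or 0.20 at its other probe. By array the list medians ran from -0.20 to 0.04 in WT and from 0.09 to 0.48 in KO. With median centring the list median was 0.085, beside a median over all probes of -0.28 in that setting. In the main setting the tonicity factor gene Nfat5 itself had 0.44 ± 0.14 (limma adjusted p = 0.129).

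**Figure D4:**
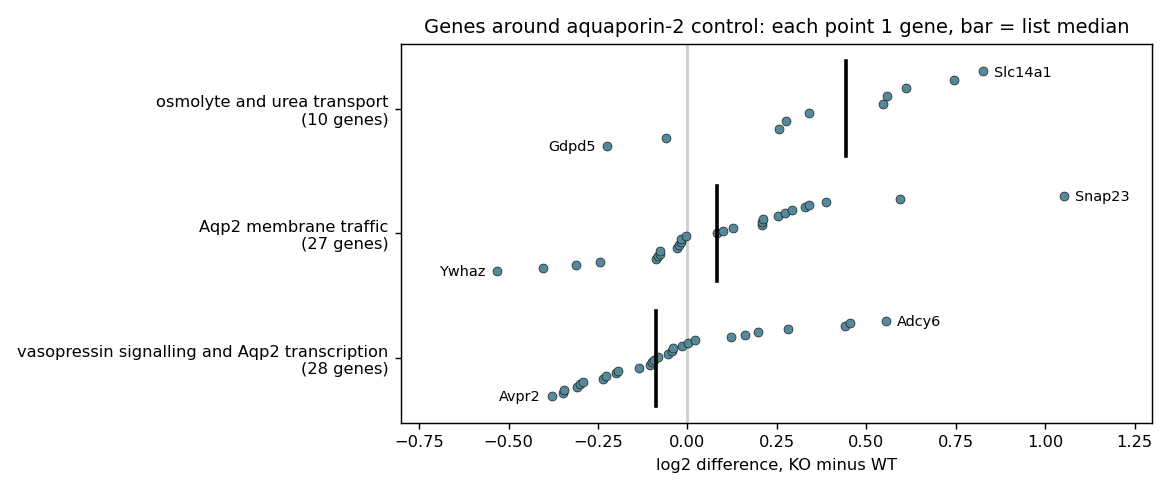
Log2 difference KO minus WT of each tested gene in the 3 lists, with the list median as a bar and the lowest and highest gene named. Medians were -0.09, 0.08 and 0.44, and no gene passed the adjusted threshold with all 8 arrays.

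Without KO 2 limma called 9.71% of all probes higher and 11.4% lower, and some genes of these lists were among them. KO 2 was the KO array that lay among the WT arrays over all probes. These calls and their adjusted p-values depend on leaving it out. In the vasopressin list 4 of 28 rose, Adcy6 (0.71, adjusted p = 0.00210), Nfat5 (0.53, adjusted p = 0.0271), Akap7 (0.82, adjusted p = 0.0461, with its other probes on the opposite side) and Crtc2 (0.28, adjusted p = 0.0499). In the traffic list 7 of 27 rose, Stx4a, Snap23, Mal, Rab5a, Cltc, Nedd4l and Myh9, and 4 fell, Rab7, Rhoa, Ywhaz and Dynll1. In the osmolyte list 3 of 10 rose, Hspa4l, Slc38a2 and Akr1b8. The aquaporin probes kept the same counts without KO 2, with 3 above all WT arrays, as were 14.5% of all probes, and 1 below, as were 19.4%. Without both KO 2 and KO 3, limma called 13.2% of all probes higher and 10.3% lower.

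The labelled cell type was checked against its markers. All 14 ureteric epithelium markers were tested, 7 with a difference above and 7 below 0, with a median of 0.06. By limma 0 were called, and at an unadjusted p under 0.05 there were 2 higher and 4 lower, beside 9.98% and 13.8% of all tested probes. Calb1 had -0.54 ± 0.15 (SE), Gata3 -0.23 ± 0.12 and Pax2 -0.40 ± 0.09, while the epithelial genes Krt18 and Cdh16 had 0.79 ± 0.19 and 0.47 ± 0.14. Hoxb7, the gene whose expression defines the deleted lineage, read 0.11, 0.07, 0.04 and 0.05 on the WT arrays and -0.59, -0.53, -0.64 and -0.79 on the KO arrays. Its KO values lay below all WT values, as did those of 7.73% of all tested probes. The difference was -0.71 ± 0.08 (limma adjusted p = 0.0638), the smallest p of the list. With scaling between arrays, no filter or trended moderation, 1 marker of the list was called lower. Of 11 principal cell markers 10 were tested, and the sodium channel gene Scnn1g was not well above background on any array. Scnn1b had -0.21 ± 0.11, Fxyd4 1.10 ± 0.36 and Hsd11b2 -0.49 ± 0.12, and the list median was -0.10. Its summed Cy5 signal was 151 to 266 ppm of the total signal in WT and 250.4 to 330 ppm in KO. Intercalated cell markers had a median of 0.16 over 12 genes, with Foxi1 at 0.35 ± 0.24, Atp6v1b1 at 0.14 ± 0.18 and Atp6v0d2 at 0.18 ± 0.20. Urothelial markers had a median of 0.29 over 10 genes, with Upk1b at 0.60 ± 0.47, Upk2 at 0.31 ± 0.48 and Upk3a at 0.62 ± 0.61.

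Other cells that the sort could hold left a signal in both groups. Neutrophil and macrophage markers were below 0 for 11 of 11 tested genes, with a median of -0.38, S100a8 at -1.45 ± 0.31 (SE), S100a9 at -1.20 ± 0.32 and Lyz2 at -0.39 ± 0.08. The count takes 1 probe per gene: Csf1r counted at -0.01 ± 0.22 but had 0.08 and 0.14 at its other probes. Ptprc had -0.06, or 0.06 without KO 2. Stroma and nephron progenitor markers were below 0 for 9 of 9, with a median of -0.57, Foxd1 at -0.18 ± 0.09, Six2 at -0.78 ± 0.57 and Cited1 at -0.82 ± 0.44. Beside these counts, 45.6% of all tested probes had a mean difference above 0. Medians were -0.23 for 13 proximal tubule and thin limb markers (Lrp2 0.27 ± 0.46, Slc34a1 -0.39 ± 0.63, Hnf4a -0.06 ± 0.40), 0.23 for 6 tested erythroid genes (Hba-a1 0.59 ± 0.82, Alas2 0.02 ± 0.58, Hbb-b2 0.47 ± 0.58) and 0.26 for 11 endothelial genes (Pecam1 0.18 ± 0.23, Cdh5 0.07 ± 0.29, Kdr 0.26 ± 0.26, or -0.55 at its other probe). The summed Cy5 signal of the neutrophil list was 55.5 to 105 ppm in WT and 56.1 to 107.1 ppm in KO. That of the stroma list was 74.2 to 230.4 ppm and 48.2 to 155 ppm, so both overlapped. The ranges were 282 to 680.4 and 226 to 718 ppm for proximal tubule and thin limb, 56.8 to 744 and 285 to 492 ppm for erythroid, 301 to 741 and 433 to 520.1 ppm for endothelium, 124 to 572 and 228 to 479 ppm for urothelium and up to 222 and 272 ppm for intercalated cells. In none of these lists did limma call a gene with all 8 arrays in the main setting. The calls that follow depend on leaving out KO 2, the KO array that lay among the WT arrays over all probes. Without KO 2, 4 of 11 neutrophil and macrophage markers fell (S100a8, S100a9, Lyz2 and Ltf), beside 11.4% of all tested probes. Of the 14 ureteric markers 2 rose (Krt18 and Cdh16) and 4 fell (Hoxb7, Pax2, Wnt11 and Calb1) without it, beside 9.71% and 11.4% of all tested probes. Hsd11b2 and the stroma and nephron progenitor marker Meox1 also fell, and Kit of the intercalated list and Slc25a37 of the erythroid list rose. The other Slc25a37 probe had -0.21 in the fit with all 8 arrays. The part of these markers in the aquaporin values was not tested.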

How the data were processed

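Sorted ureteric bud cells of 4 WT and 4 KO samples were read on 8 Agilent 2-colour arrays of 62976 spots, with 0.5 µg of total RNA per labelling per the labels' protocols. The deposited scanner files hold median spot and background intensity values, which came from Feature Extraction (Agilent, version 10.7.3.1) according to the submitters' processing notes. The annotation build is mm9 per the file headers. The deposited log10 ratios of the scanner files and of the series table (column medians of 0 on 7 arrays and 0.0152 on KO 3) are background-subtracted and dye-normalised by the authors' software, per the file headers, and were used as alternatives. The table's scale and Cy5 over Cy3 direction were checked against the scanner ratios.

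Intensities were corrected with normexp (offset 50) and normalised by loess in limma 3.58.1 (R 4.3.3), with marked spots left out and spots of a probe averaged. Of 37850 systematic names 21717 matched RefSeq (GRCm38.p6). WT and KO were compared per probe with lmFit and eBayes, 2-sided, Benjamini-Hochberg adjusted over 31667 probes. All adjusted p-values and SE come from limma. A listed gene counts by its brightest tested probe. The number of arrays limits precision. In simulated data for this comparison with 31667 probes, 86 of 100 probes changed by 1 (log2) and 97 of 100 changed by 2 were recovered, with 9 false calls. The simulated noise was independent between probes, and each change was equal on every KO array. The real arrays differed as wholes and KO 2 lay among the WT arrays, so these rates cannot be carried over to them.

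Named are all aquaporin probes, the first 4 measured genes of each pathway list and the first 3 of each marker list, genes past the threshold, and 3 closest profiles per aquaporin, of which some genes are not reported here. Nfat5, Pax8, Hoxb7, Krt18, Cdh16 and chromosome neighbours were named after their values were seen. Members and lists were chosen with earlier results of these data known. The alternatives were other background corrections, ratios, normalisations and filters, marked spots kept, array weights, trended moderation, a replicate block and arrays left out. Probe sequences were not used here.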

Additional observations from a re-analysis of the deposited data

Results flagged for a closer look

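One value stood apart from the rest of its group. At probe A_55_P2000369 of Aqp4 the KO 3 array had a log2 ratio of -0.48, while the other 3 KO arrays lay between 0.64 and 0.82. The gap was 0.86 of the group's range, past the critical value of Dixon's test for 4 samples. Of the 24 groups of values, all but the KO group of A_55_P2031939, which lacks KO 3, were looked at. Among those 1 was past it, and chance gives about 1 in 20. KO 3 was also the array with the most spots marked by the scanner software.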

How the results depend on the processing

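Both Aqp5 and both Aqp11 probes kept their sign in all 22 alternatives. These draw on the same 8 arrays and are not independent. No filter, the filter on all 8 arrays, marked spots kept and trended moderation left these differences as they were. The series table holds nearly the same ratios as the scanner log ratio. The Aqp5 differences moved to 1.62 and 0.83 with offset 0, 1.75 and 0.95 with the scanner log ratio, and 1.75 and 0.95 with the series table. The second Aqp5 probe moved to 0.85 with median centring and 1.13 with Cy5 alone. The Aqp11 differences moved to -0.69 and -0.72 with median centring and to -0.67 and -0.88 with Cy5 alone. The median over all probes was itself -0.28 with median centring and -0.18 with Cy5 alone, against -0.02 in the main setting. With one array left out the differences ranged from 1.08 to 1.36 and 0.46 to 0.60 for Aqp5, and from -0.45 to -0.21 and -0.46 to -0.33 for Aqp11. Probes of Aqp7 and Aqp8 are too dim for the filter on all 8 arrays and have no value there. The cause of these shifts was not tested.

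Probes called lower numbered 1 with offset 0, 1 with no background subtraction, 0 with median centring, 0 with Cy5 alone, 6 with scaling between arrays, 4 with no filter and 9 with trended moderation. With array weights they numbered 2915, and 3256 without both KO 2 and KO 3. Probes called higher numbered 2 with the scanner log ratio, 2 with the series table, 10 with trended moderation, 3034 with array weights and 4180 without both KO 2 and KO 3. With one array left out, between 0 and 3075 were higher and between 1 and 3617 lower, the highest without KO 2. Without KO 3, 5 were higher, and without WT 3, 3. With the replicate block 0 probes were called lower. It changed no other call of the lists, and the samples share only a number: deviations of same-numbered samples correlated at -0.21, 0.05, 0.11 and -0.01 for numbers 1 to 4.

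The list medians moved to -0.52 (vasopressin), -0.39 (traffic) and 0.085 (osmolyte) with median centring, and to -0.32 (vasopressin) and -0.0063 (traffic) with Cy5 alone. In these settings the median over all probes was -0.28 and -0.18. With array weights 2 vasopressin genes were higher and 1 lower, 6 traffic genes higher and 2 lower, and 5 osmolyte genes higher. Without both KO 2 and KO 3, 4 vasopressin genes were higher, 4 traffic genes higher and 3 lower, and 4 osmolyte genes higher. With one array left out, 0 to 4 vasopressin genes were higher and 0 to 1 lower, 0 to 7 traffic genes higher and 0 to 4 lower, and 0 to 3 osmolyte genes higher. These counts were above 0 without KO 2 among single arrays left out.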
